A study of Mus musculus with 12 samples.

Results

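The 10 genes described here make up the growth hormone and STAT5 signalling axis of the liver, and they were chosen by symbol from the 54532 genes of the expression table. They comprised the receptors *Ghr* and *Prlr*, the transcription factors *Stat5a* and *Stat5b*, the secreted products *Igf1* and *Igfals*, the feedback inhibitors *Socs2* and *Cish*, and the repressors *Bcl6* and *Cux2*. Of these, 9 had a mean of at least 1 FPKM and were tested, with 11083 genes tested in all. *Cux2* fell below this level and is given by its values. FPKM are fragments per kilobase of gene, on the scale of each library as deposited. Livers came from 12 male C57BL/6J mice, 3 in each of 4 groups, which were put on their diets at 5 weeks of age and kept on them for 26 weeks. ND-fed mice received a normal diet, control mice a high-fat diet, and HYA-treated and LA-treated mice the high-fat diet with 1% HYA or 1% LA. LA is linoleic acid, and HYA is a hydroxy fatty acid formed from it by bacteria of the gut. The 9 mice of the last 3 groups thus shared the high-fat diet, and no group analysed here received HYA or LA on the normal diet. How the sequenced mice were picked from the larger feeding groups is not stated in the sources used here.

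Growth hormone from the pituitary binds GHR on hepatocytes, and the kinase JAK2 on this receptor then phosphorylates STAT5, which enters the nucleus and switches on its targets. Among these are *Igf1* and *Igfals*, whose products circulate as a complex with IGF-binding proteins and carry the growth-promoting action of the hormone, and *Socs2* and *Cish*, whose products shut the receptor off again. In male mice growth hormone comes in pulses and in females it is more nearly continuous, so that STAT5 activity sets the sex-biased pattern of many liver genes, and BCL6 and CUX2 act as repressors in males and females, respectively. Only mRNA was measured in these livers, so that neither growth hormone nor STAT5 phosphorylation was observed.

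Library depth was 17169064 to 25220880 fragments on genes, and in these libraries a value of *Ghr* rested on 8430 to 14786 fragments and one of *Socs2* on 115 to 481. Albumin and the other 4 hepatocyte markers were abundant in every mouse, and the Y-linked genes *Ddx3y*, *Eif2s3y*, *Uty* and *Kdm5d* were expressed throughout with *Xist* at or near 0, in keeping with the male label. The summed level of the 5 hepatocyte markers differed between groups, with 38894 to 40266 FPKM in ND-fed, 26296 to 29975 in control, 33732 to 34835 in HYA-treated and 28981 to 29617 in LA-treated mice. In the opposite direction, the 7 stellate cell markers summed to 32.9 to 43.1 FPKM in ND-fed, 70.0 to 91.5 in control, 56.7 to 70.8 in HYA-treated and 75.2 to 90.0 in LA-treated mice. Between ND-fed and control mice, 3 of the 5 hepatocyte markers fell with the high-fat diet, 4 of the 7 stellate cell and 3 of the 6 endothelial markers rose, and of the 7 Kupffer cell markers 2 rose and 2 fell. Of the 5 bile duct markers only 2 were tested, of which *Epcam* rose and *Sox9* did not pass (-0.05, limma adjusted p = 0.853). With HYA against control, 2 stellate cell markers, *Col1a1* (-1.12, limma adjusted p = 0.0292) and *Col3a1* (-0.83, limma adjusted p = 0.0296), and *Epcam* (-0.84, limma adjusted p = 0.0357) fell, and their part in the results on the axis was not tested. *Sox9* again did not pass (-0.33, limma adjusted p = 0.378). Here and throughout, rose and fell mean an adjusted p under 0.05 in limma, with Benjamini-Hochberg adjustment over all tested genes. The markers of fat cells were near or at 0, with *Plin1* at 0 in ND-fed, control and HYA-treated mice. Fewer cells of a type and less RNA per cell cannot be told apart in whole liver.

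STAT proteins bind the palindrome TTCNNNGAA, which reads alike on both strands. RefSeq promoters (build GRCm38.p6, 250 bases before to 50 bases after a start) were found for 9 of the 10 genes (all but *Socs2*), 18 promoters in all, and 6 of these 18 held the motif (33.3%), against 2726 of 32851 promoters of the same length (8.3%). The 6 belonged to *Prlr*, *Igfals* (2), *Cish* and *Bcl6* (2), while no match was found in the windows of *Ghr*, *Igf1*, *Stat5a*, *Stat5b* and *Cux2*. The 4 sequences below are those of the secreted product that moved most with diet, of the feedback inhibitor with the widest spread between mice, of the prolactin receptor and of the repressor with the most matches. Each is printed from 5′ to 3′ on the strand of the gene, with the motif in capitals.
*Igfals* promoter, chr17:24877981-24878280, plus strand: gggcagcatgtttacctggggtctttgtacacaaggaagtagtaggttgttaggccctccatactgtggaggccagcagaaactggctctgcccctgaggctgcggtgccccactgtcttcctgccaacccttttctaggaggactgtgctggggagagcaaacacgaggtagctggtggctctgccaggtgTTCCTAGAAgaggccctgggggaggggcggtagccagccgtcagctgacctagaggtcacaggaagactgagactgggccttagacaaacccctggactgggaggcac
*Cish* promoter, chr9:107296409-107296708, plus strand: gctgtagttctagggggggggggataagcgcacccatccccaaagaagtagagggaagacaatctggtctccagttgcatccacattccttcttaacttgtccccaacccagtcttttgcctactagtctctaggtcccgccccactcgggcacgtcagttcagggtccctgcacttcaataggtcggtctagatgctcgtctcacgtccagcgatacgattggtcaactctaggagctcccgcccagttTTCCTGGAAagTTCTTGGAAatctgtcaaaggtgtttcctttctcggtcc
*Prlr* promoter, chr15:10223656-10223955, plus strand: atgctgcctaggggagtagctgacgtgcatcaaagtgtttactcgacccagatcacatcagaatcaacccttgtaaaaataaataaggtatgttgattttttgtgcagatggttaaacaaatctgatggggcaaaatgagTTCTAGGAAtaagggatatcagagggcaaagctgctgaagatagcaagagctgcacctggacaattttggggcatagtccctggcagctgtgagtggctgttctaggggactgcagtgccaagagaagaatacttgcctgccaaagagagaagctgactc
*Bcl6* promoter, chr16:23981234-23981533, minus strand: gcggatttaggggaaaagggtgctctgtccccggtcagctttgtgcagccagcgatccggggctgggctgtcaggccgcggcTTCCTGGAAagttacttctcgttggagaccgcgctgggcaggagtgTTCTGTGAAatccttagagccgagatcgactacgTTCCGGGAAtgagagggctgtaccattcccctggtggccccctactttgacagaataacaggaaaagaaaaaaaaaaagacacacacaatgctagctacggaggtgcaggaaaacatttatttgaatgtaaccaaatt
The match in the *Igfals* window began at position -58 from its start, and the other *Igfals* window with a match began it at -236 from a start lying further upstream. In *Cish* a pair of matches began at positions 1 and 12, just past the start, and 150 of all promoters (0.457%) held at least 2. In *Bcl6*, 3 matches began at -168, -122 and -88, and 11 of all promoters (0.0335%) held at least 3. BCL6 protein itself recognizes a motif that overlaps that of STAT5. The window of the third *Igfals* start, that nearest to the start in the expression table, held no match, nor did that of the most upstream *Prlr* start. Binding was not measured in these livers, and which start was in use is not given in the sources used here.

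The first question was how the axis differed between livers of mice on a high-fat and on a normal diet. Both receptors and both secreted products were lower in control livers, and the transcription factors, feedback inhibitors and *Bcl6* did not pass the test. Thus 4 of the 9 tested genes fell and 0 rose, where 19.1% of all tested genes fell and 16.2% rose. The same 4 genes were those with ranges that did not overlap between the groups (25.7% of all tested genes lay lower without overlap).

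*Ghr* (ENSMUSG00000055737, chromosome 15, 3317760 to 3583492, minus strand, build GRCm38), the receptor that starts the pathway, was at 77.6, 84.4 and 81.2 FPKM in ND-fed mice and at 46.0, 54.9 and 44.9 FPKM in control mice. Every control mouse lay well below every ND-fed mouse. Mean levels were 81.1 ± 3.43 and 48.6 ± 5.48 FPKM (SD, n = 3), so that the mean fell by 40.0%, with a log2 fold change of -0.73 (standard error 0.09, limma adjusted p = 0.000159). *Prlr* (ENSMUSG00000005268, chromosome 15, 10177238 to 10349180), the related receptor for prolactin, was at 6.01, 6.51 and 6.65 FPKM in ND-fed and 3.16, 3.94 and 3.78 FPKM in control mice, again without overlap. Its log2 fold change was -0.68 (standard error 0.10, limma adjusted p = 0.000598). Per kilobase, *Ghr* mRNA was thus more abundant than that of *Prlr* in all 12 mice, with its lowest FPKM (44.9) above the highest of *Prlr* (6.65).

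*Igf1* (ENSMUSG00000020053, chromosome 10, 87858265 to 87937042), which encodes the main hormone of the axis released by the liver, was at 52.2, 59.5 and 51.2 FPKM in ND-fed mice and at 35.6, 35.9 and 28.3 FPKM in control mice. The groups did not overlap, and the mean fell by 38.8% (log2 fold change -0.70, standard error 0.10, limma adjusted p = 0.000345). *Igfals* (ENSMUSG00000046070, chromosome 17, 24878770 to 24882008) encodes the acid-labile subunit, which holds IGF-1 and its binding protein in a long-lived complex in blood. It was at 65.5, 62.1 and 64.1 FPKM in ND-fed mice and at 20.1, 25.7 and 19.2 FPKM in control mice. This was the largest log2 difference among the 4 genes that passed the test, and the mean fell by 66.1% (log2 fold change -1.53, standard error 0.10, limma adjusted p = 2.23e-06). It was also the only one of the 9 beyond an absolute log2 fold change of 1, which 3.88% of all tested genes passed together with the adjusted p-value. *Igfals* alone also passed this fold in LA-treated against ND-fed mice (3.49% of all tested genes), and 0 of the 9 did so in HYA-treated against control (0.307%), LA-treated against control (0%), HYA-treated against LA-treated (0.108%) and HYA-treated against ND-fed mice (1.89%). In FPKM, every *Igfals* value lay above every *Igf1* value in ND-fed mice and below every *Igf1* value in control mice.

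**Figure D1:**
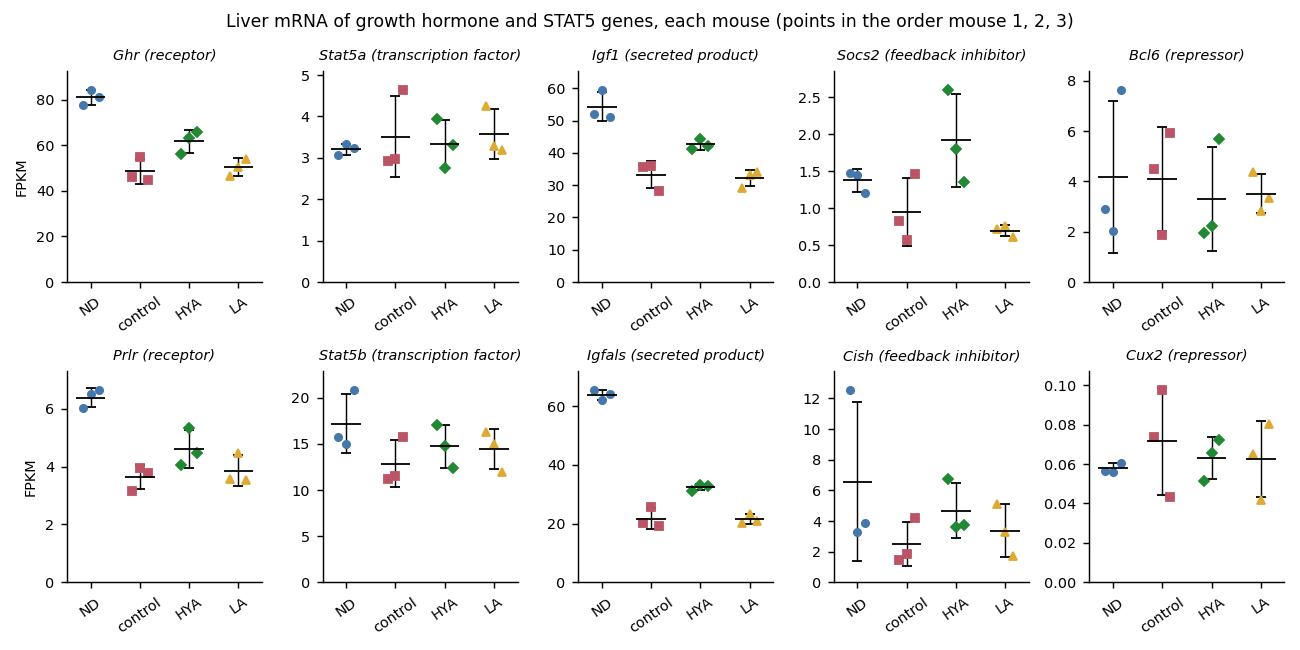
FPKM of each of the 10 genes in each mouse, by diet group (ND, control, HYA, LA; 3 points per group, horizontal line and bars the mean ± SD, axes from 0 and of different height). *Ghr*, *Prlr*, *Igf1* and *Igfals* were lowest on the high-fat diet with or without LA and highest in ND-fed mice, whereas *Cish* and *Bcl6* spread widely within groups.

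*Stat5b* (ENSMUSG00000020919, chromosome 11, 100780731 to 100850724), the main hepatic mediator of growth hormone, was at 15.8, 15.0 and 20.8 FPKM in ND-fed and 11.2, 11.6 and 15.8 FPKM in control mice, with the ranges overlapping through control mouse 3. Its log2 fold change was -0.40 (95% interval -0.77 to -0.02, limma adjusted p = 0.091), and without control mouse 3 it was -0.54 (limma adjusted p = 0.0315). Without any 1 other mouse of these groups it ran from -0.48 to -0.26 and did not pass (limma adjusted p from 0.0843 to 0.286). The neighbouring *Stat5a* (ENSMUSG00000004043, chromosome 11, 100859351 to 100885169), its close relative, ranged from 3.06 to 3.33 FPKM with ND and from 2.93 to 4.64 FPKM in controls, which overlapped (log2 fold change 0.08, 95% interval -0.25 to 0.41, limma adjusted p = 0.708). Reads shared between these near-identical coding sequences, and those of *Stat3*, which overlaps *Stat5a* on the opposite strand at a mean of 12.8 FPKM, may have been divided in ways not stated in the sources used here, so that *Stat5a* in particular is uncertain. In all 12 mice *Stat5b* was the more abundant of the pair per kilobase, with 11.2 FPKM as its lowest and 4.64 FPKM as the highest value of *Stat5a*.

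*Socs2* (ENSMUSG00000020027, chromosome 10, 95385362 to 95417180) encodes a protein that marks GHR for degradation. It was at 1.48, 1.45 and 1.20 FPKM in ND-fed mice and at 0.829, 0.565 and 1.46 FPKM in control mice, with control mouse 3 inside the range of ND-fed mice. The log2 fold change was -0.31 (95% interval -0.69 to 0.07, limma adjusted p = 0.192), and -0.49 without control mouse 3 (limma adjusted p = 0.0377). Leaving out any 1 other mouse of these groups gave -0.36 to -0.16, which did not pass (limma adjusted p from 0.201 to 0.517). *Cish* (ENSMUSG00000032578, chromosome 9, 107296026 to 107302784), an early target of activated STAT5 that blocks its docking to the receptor, was at 12.5, 3.28 and 3.84 FPKM in ND-fed and 1.48, 1.84 and 4.17 FPKM in control mice. Here ND-fed mouse 1 stood far above all other mice, and the log2 fold change of -0.98 did not pass (95% interval -1.99 to 0.03, limma adjusted p = 0.12).

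*Bcl6* (ENSMUSG00000022508, chromosome 16, 23965052 to 23988852), a repressor that competes with STAT5 at its sites in male liver, was at 2.89, 2.01 and 7.64 FPKM in ND-fed and 4.50, 1.87 and 5.93 FPKM in control mice. The ranges overlapped almost wholly (log2 fold change 0.04, 95% interval -0.93 to 1.00, limma adjusted p = 0.958). *Cux2* (ENSMUSG00000042589, chromosome 5, 121856366 to 122050102), the female-specific repressor, was at 0.0419 to 0.0975 FPKM over all 12 mice, which corresponds to 9 to 21 fragments, with the lowest and the highest value in LA-treated mouse 2 and control mouse 2. At this depth no difference of *Cux2* between the diets was detectable, and in a fit without a filter its lowest limma adjusted p over the 6 comparisons was 0.654.

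Next, HYA-treated were compared with control mice, which asks whether adding HYA to the high-fat diet changed the axis. *Igfals* rose, and it was the only one of the 9 tested genes that passed, against 1.57% of all tested genes higher and 1.23% lower. The 3 HYA-treated mice were at 31.3, 33.3 and 32.7 FPKM and the 3 control mice at 20.1, 25.7 and 19.2 FPKM. Means were 32.4 ± 1.05 and 21.7 ± 3.56 FPKM (SD, n = 3), with HYA 49.7% above control and a log2 fold change of 0.57 (standard error 0.10, limma adjusted p = 0.0205). The call was lost in 5 of 15 other settings, namely when only these 6 mice were fitted (limma adjusted p = 0.139) and when any 1 of control mouse 1 (0.0886), control mouse 3 (0.0561), HYA-treated mouse 2 (0.1) and HYA-treated mouse 3 (0.066) was left out, at log2 fold changes of 0.49 to 0.57. With only these 6 mice, and without HYA-treated mouse 2, 0% of all tested genes passed. Without control mouse 1, control mouse 3 or HYA-treated mouse 3, 0.153%, 0.415% and 0.244% of all tested genes were higher.

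For *Ghr*, *Prlr* and *Igf1* too, the 3 HYA-treated mice lay above all 3 control mice, and with *Igfals* these made 4 of 9 genes, against 12.7% of all tested genes lying higher without overlap. *Ghr* was at 56.1, 63.3 and 66.1 FPKM in HYA-treated mice, 27.1% above control mice on average (log2 fold change 0.34, 95% interval 0.14 to 0.54, limma adjusted p = 0.0703). *Igf1* was at 41.3, 44.4 and 42.2 FPKM, 28.2% above control mice (0.36, 95% interval 0.14 to 0.57, limma adjusted p = 0.0764). *Prlr* was at 4.06, 5.34 and 4.48 FPKM (0.28, 95% interval 0.05 to 0.51, limma adjusted p = 0.177). None of these 3 passed the test over all genes. *Ghr* passed without control mouse 2, whose value was the highest of its group (log2 fold change 0.43, limma adjusted p = 0.0186). Without any 1 other mouse of these groups it ran from 0.29 to 0.41 and did not pass (limma adjusted p from 0.0721 to 0.251).

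*Socs2* was the member with the largest ratio of means between these groups, 1.92 ± 0.63 against 0.953 ± 0.462 FPKM (SD, n = 3), or 2.02-fold. Its values in HYA-treated mice were 2.60, 1.81 and 1.36 FPKM, and control mouse 3 at 1.46 FPKM lay among them. On the log2(FPKM + 1) scale, which understates changes of such low values, the difference was 0.59 (95% interval 0.20 to 0.97, limma adjusted p = 0.0989), and with a pseudocount of 0.1 it was 0.99 (limma adjusted p = 0.108). *Cish* was at 6.73, 3.59 and 3.74 FPKM in HYA-treated mice, overlapping with control mice through control mouse 3 (0.74, 95% interval -0.27 to 1.75, limma adjusted p = 0.434). *Stat5b* at 12.4 to 17.1 FPKM, *Stat5a* at 2.75 to 3.93 FPKM and *Bcl6* at 1.96 to 5.68 FPKM overlapped with control mice, with limma adjusted p of 0.614, 0.912 and 0.819.

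**Figure D2:**
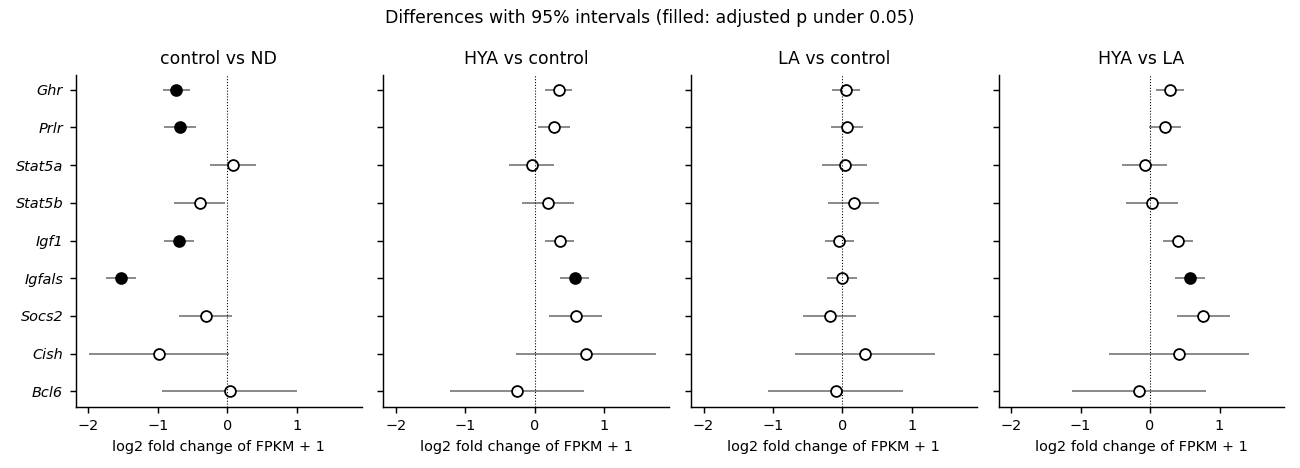
Differences between groups in log2(FPKM + 1) for the 9 tested genes (points, with 95% intervals from limma, n = 3 mice per group), in 4 comparisons on the same axis; filled points have an adjusted p under 0.05. *Igfals* is the only filled point between HYA-treated and control mice and between HYA-treated and LA-treated mice, and no point is filled between LA-treated and control mice.

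LA, the parent compound, was given at the same dose and for the same time. Between LA-treated and control mice, 0 of the 9 genes passed the test in limma (0% of all tested genes) or with voom, 0 had an unadjusted p under 0.05 (2.65% of all tested genes), and 0 had ranges without overlap (7.55% of all tested genes in either direction). *Igfals* was at 20.1, 23.4 and 20.8 FPKM in LA-treated mice, and its difference from control mice had a 95% interval of -0.22 to 0.21 on the log2 scale. For *Ghr*, at 46.5, 50.5 and 54.2 FPKM, the interval was -0.14 to 0.25, and for *Igf1*, at 29.3, 33.1 and 34.0 FPKM, it was -0.26 to 0.17. For *Igfals*, *Ghr* and *Igf1* the difference seen in HYA-treated mice (0.57, 0.34 and 0.36) lay outside these intervals. For *Prlr* the difference seen in HYA-treated mice (0.28) lay inside the interval for LA, which was -0.16 to 0.30. Setting differences against intervals in this way takes no account of the error of the HYA differences or of the shared control mice. In the direct comparison of the compounds, given next, only *Igfals* of these genes passed. The intervals were far wider for *Cish* (-0.69 to 1.33) and *Bcl6* (-1.07 to 0.87), so that changes of about those sizes lie within them.

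The compounds were then compared directly, as 1 pair that differs by the hydroxyl group and the double bond lost with it. *Igfals* with HYA exceeded that with LA by 51.3% (log2 difference 0.58, 95% interval 0.37 to 0.79, limma adjusted p = 0.0365), the only one of the 9 genes to pass, where 0.235% of all tested genes were higher and 0.253% lower. Leaving out any 1 of these 6 mice raised its limma adjusted p to between 0.0686 and 0.185, while the difference stayed at 0.54 to 0.64. In those fits 0% to 0.0812% of all tested genes were higher and 0% to 0.0993% lower. *Socs2* had the largest log2 difference, with LA-treated mice at 0.714, 0.753 and 0.612 FPKM, all below the lowest HYA-treated mouse at 1.36 FPKM. Its means differed 2.77-fold (log2 difference 0.77, 95% interval 0.38 to 1.15, limma adjusted p = 0.0704). The ranges were also separate for *Ghr* (0.29, 95% interval 0.09 to 0.49, limma adjusted p = 0.135) and *Igf1* (0.40, 95% interval 0.19 to 0.61, limma adjusted p = 0.079). Thus 4 of 9 genes were higher without overlap, against 14.8% of all tested genes. *Prlr*, *Stat5a*, *Stat5b*, *Cish* and *Bcl6* overlapped between the compounds, with limma adjusted p from 0.328 to 0.956, and the interval for *Stat5b* was -0.34 to 0.40.

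Compared with ND-fed mice, HYA-treated mice had lower *Ghr*, *Prlr*, *Igf1* and *Igfals* (4 of 9 genes, against 7.85% of all tested genes lower and 8.72% higher), and LA-treated mice had the same 4 lower (against 16.6% lower and 14.4% higher). Both comparisons share their ND-fed mice with that of control mice. Mean *Igfals* in HYA-treated mice was 0.508 times that in ND-fed mice (log2 fold change -0.96, limma adjusted p = 0.000105) and in LA-treated mice 0.335 times (-1.53, limma adjusted p = 2.33e-06). For *Ghr* the values were -0.39 (limma adjusted p = 0.0143) and -0.68 (limma adjusted p = 0.000299), and for *Igf1* they were -0.34 (limma adjusted p = 0.0365) and -0.74 (limma adjusted p = 0.000274). Ranges were separate for the same 4 genes in HYA-treated mice (19.3% of all tested genes lower without overlap) and, with *Socs2*, for 5 genes in LA-treated mice (26.5%). The calls of *Ghr*, *Prlr* and *Igf1* between HYA-treated and ND-fed mice were each lost without ND-fed mouse 2 and without HYA-treated mouse 1, those of *Prlr* and *Igf1* also without some other single mice, and that of *Igf1* under TPM (-0.23, limma adjusted p = 0.141) and voom as well. Those of *Prlr* and *Igf1* were also lost without a filter on low values, and all 3 were lost after division by the summed hepatocyte markers, at -0.18 for *Ghr*, -0.22 for *Prlr* and -0.13 for *Igf1*. The median of all tested genes was 0.15 under that scaling, and relative to it these genes lay at -0.33, -0.36 and -0.28. The call of *Igfals* held under these settings and without any 1 mouse. *Socs2* was lower in LA-treated than in ND-fed mice without overlap (log2 fold change -0.49, limma adjusted p = 0.0534), where it passed with a pseudocount of 0.1 (-0.90, limma adjusted p = 0.0415) and when only these 6 mice were fitted (-0.49, limma adjusted p = 0.00716). It was the one member whose mean was highest in HYA-treated mice.

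The order of mean levels was ND, HYA, LA, control for *Ghr*, *Prlr*, *Stat5b* and *Cish*, and ND, HYA, control, LA for *Igf1* and *Igfals*. For *Ghr*, *Igf1* and *Igfals* only the control and LA groups, next to each other in this order, overlapped. For *Prlr* HYA-treated and LA-treated mice overlapped as well, and for *Stat5a*, *Stat5b*, *Socs2*, *Cish*, *Bcl6* and *Cux2* all neighbours did.

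The summed hepatocyte markers, like *Ghr*, were highest in ND-fed and next in HYA-treated mice, so the values were also rescaled. Most of that sum was albumin (*Alb*), at 28480 to 30140 of 38894 to 40266 FPKM in ND-fed mice. *Alb* itself fell in control mice (-0.51, limma adjusted p = 0.000247), so that this scaling rested largely on 1 gene that differed with diet. In control against ND-fed mice the median over all tested genes was -0.04 (log2), and it became 0.17 with TPM and 0.34 after division by the summed hepatocyte markers. With the latter, *Igfals* remained lower in control mice (-1.07, limma adjusted p = 5.05e-06), as did *Ghr* (-0.26, limma adjusted p = 0.0214) and *Prlr* (-0.28, limma adjusted p = 0.0176), but *Igf1* did not pass (-0.23, limma adjusted p = 0.0956), and *Stat5a* was higher (0.44, limma adjusted p = 0.0196). Relative to the median of all genes under that scaling, *Igf1* lay at -0.57 and *Stat5a* at 0.10. Between HYA-treated and control mice, where the median moved from 0.02 to -0.20, *Igfals* was at 0.32 (limma adjusted p = 0.0251), while *Ghr* and *Igf1* were at 0.08 and 0.10. The difference of *Igfals* between HYA-treated and LA-treated mice was 0.36 (limma adjusted p = 0.0295) and that of *Socs2* was 0.66 and passed (limma adjusted p = 0.0358). Whether *Igfals* moved within hepatocytes was not measured, and the part of the other cell markers, the stellate cell markers included, was not tested.

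**Figure D3:**
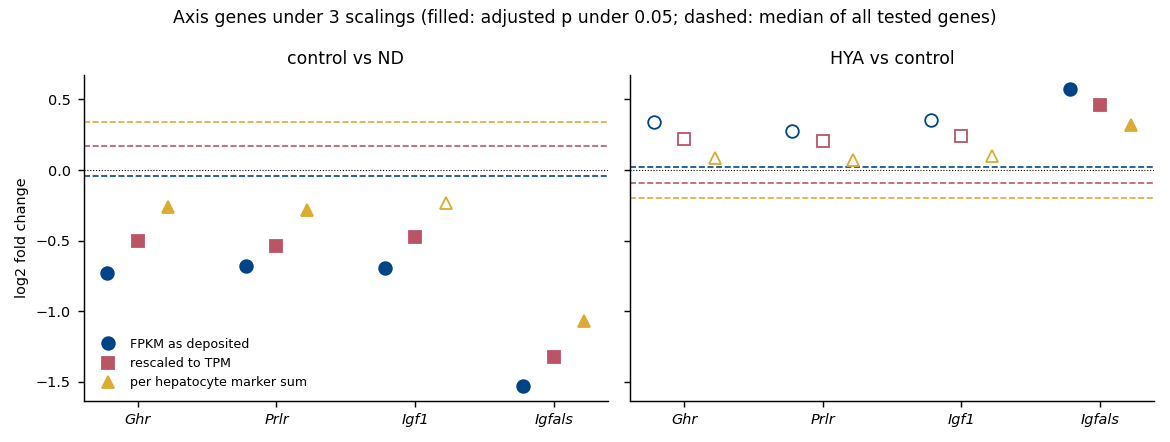
Log2 fold changes of the 4 genes that fell in control mice, under the deposited FPKM, TPM and division by the summed hepatocyte markers (symbols; filled with an adjusted p under 0.05), with the median of all tested genes under each scaling as a dashed line in the same colour. *Igfals* is filled under all 3 scalings in both panels, and *Igf1* loses its call in control against ND-fed mice under the hepatocyte scaling.

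The genes of the axis differed in how steady they were between mice of one group. The pooled within-group SD of log2(FPKM + 1) was 0.12 for *Ghr*, 0.13 for *Igfals*, *Igf1* and *Prlr*, 0.20 to 0.23 for *Stat5a*, *Stat5b* and *Socs2*, 0.65 for *Cish* and 0.62 for *Bcl6*, with 0.11 as the median over all tested genes. *Cish* and *Bcl6* thus lay above 98.7% and 98.6% of tested genes, although their values rested on 204 to 1414 and 214 to 940 fragments. For *Cish* the highest mouse of the ND, HYA and LA groups stood at 12.5, 6.73 and 5.13 FPKM, whereas for *Bcl6* 1 mouse each of the ND, control and HYA groups stood at 7.64, 5.93 and 5.68 FPKM. In ND-fed and HYA-treated mice the mouse highest in *Cish* was not the one highest in *Bcl6*, while in control mice mouse 3 and in LA-treated mice mouse 1 was highest in both. The mouse highest in *Cish* was also the highest in *Socs2* in the ND, control and HYA groups, but not in the LA group. The time of day or of feeding at which each liver was taken is not given in the sources used here.

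**Figure D4:**
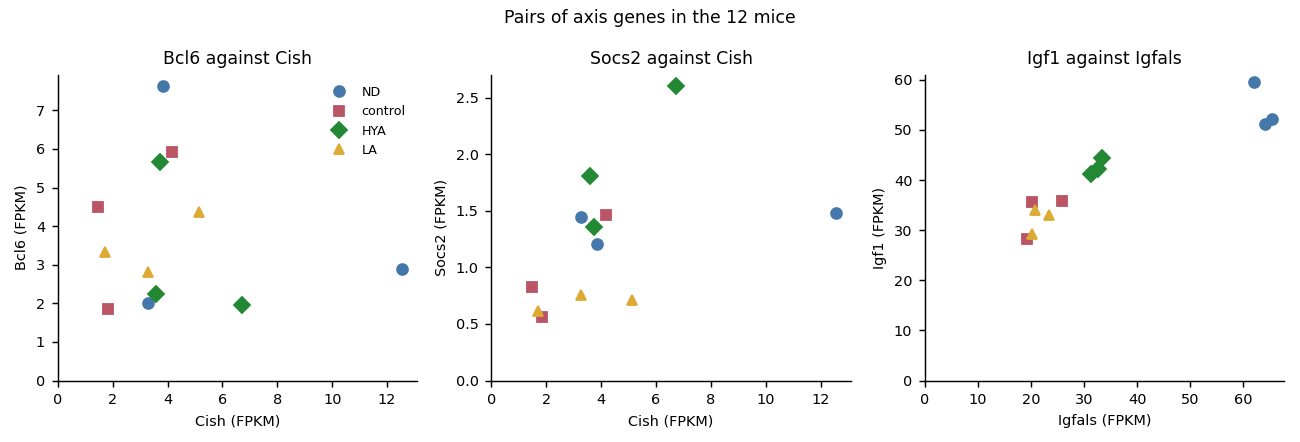
Levels (FPKM, axes from 0) of *Bcl6* and *Socs2* against *Cish* and of *Igf1* against *Igfals*, each point 1 of the 12 mice, coloured by group. ND-fed, HYA-treated and the other high-fat mice form 3 separate sets for *Igf1* and *Igfals*, whereas *Cish* and *Bcl6* show no such sets.

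Across the 12 mice, the tested genes with a pattern most like that of each fallen member were found by Pearson's r of log2(FPKM + 1), as a description of points that share the gap between ND-fed and the other mice. For *Ghr* they were *Cyp2c23*, *Epb41l5* and *Epb41l4b* (r = 0.991, 0.988 and 0.988), and over the 9 mice fed the high-fat diet r was 0.991, 0.982 and 0.963. For *Igfals* they were *Keg1*, *Alas2* and *Notum* (0.990, 0.990 and 0.989, and 0.951, 0.942 and 0.940 over the 9 mice). For *Igf1* they were *Nudt7*, *Tmem123* and *Ugt2a3* (0.979, 0.977 and 0.975, and 0.960, 0.930 and 0.930 over the 9 mice). For *Prlr* they were *Brd2*, *Ccs* and *Cyp2c68* (0.974, 0.971 and 0.969, and 0.923, 0.902 and 0.903 over the 9 mice).

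Genes of the wider pathway were taken from 4 lists. Of 19 tested genes of a list of 21 on receptor signalling, 1 was higher and 2 were lower in control mice relative to ND (16.2% of all tested genes were higher and 19.1% lower), with a median log2 fold change of 0.03 against -0.04 over all tested genes. These were *Socs5* (0.35, limma adjusted p = 0.00968), *Socs7* (-0.31, limma adjusted p = 0.0131) and *Socs6* (-0.25, limma adjusted p = 0.0133), relatives of *Socs2*. These counts depended on the scale of the libraries, with 6 higher and 0 lower under TPM (34.2% and 6.6% of all tested genes) and 14 higher and 0 lower under the hepatocyte marker scaling (66.6% and 3.26%). Between HYA-treated and control mice 0 of the 19 passed, with *Socs5* having the lowest p (-0.31, limma adjusted p = 0.0841), while under the hepatocyte marker scaling 7 were lower, as were 28.1% of all tested genes.

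Of the genes for IGF-binding proteins and IGF receptors, 8 of 13 were tested, and 3 were higher and 1 lower in controls relative to ND (median 0.24), against 16.2% and 19.1% of all tested genes. The counts became 6 and 1 under TPM (34.2% and 6.6% of all tested genes) and 7 and 1 under the hepatocyte marker scaling (66.6% and 3.26%). *Igfbp3*, whose product forms the circulating complex with IGF-1 and the acid-labile subunit, rose from 4.70 ± 0.971 to 9.33 ± 0.195 FPKM (log2 fold change 0.87, limma adjusted p = 0.000893), opposite in direction to *Igf1* and *Igfals*. *Igfbp7* rose from 49.6 ± 7.18 to 94.7 ± 13.8 FPKM (0.92, limma adjusted p = 0.000435), whereas *Igfbp2* fell from 188.6 ± 47.0 to 87.2 ± 31.0 FPKM (-1.13, limma adjusted p = 0.00683). In HYA-treated mice 0 of the 8 passed the test against control mice (2 were lower under the hepatocyte marker scaling, as were 28.1% of all tested genes), and *Igfbp2* stood at 153.8 ± 26.3 FPKM. The lowest p was that of *Insr*, the insulin receptor (0.17, limma adjusted p = 0.104).

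The last 2 lists hold genes known to follow the sex-specific pattern of growth hormone. Of 19 tested male-biased genes (of 20 listed), 18 fell in control mice and 0 rose, with a median log2 fold change of -2.20 against ND, where 19.1% of all tested genes fell and 16.2% rose. Under TPM and the hepatocyte marker scaling 17 fell and 0 rose, with 6.6% and 3.26% of all tested genes lower. *Hsd3b5*, a steroid dehydrogenase, stood at 161 ± 21.6 FPKM in ND-fed and 0.484 ± 0.68 FPKM in control mice (-6.85, limma adjusted p = 3.9e-05), and *Serpina1e*, an alpha-1-antitrypsin gene, at 3274 ± 421 and 29.0 ± 12.1 FPKM (-6.83, limma adjusted p = 1.32e-07). With HYA, 11 of the 19 rose relative to control mice and 0 fell (median 0.78), against 1.57% and 1.23% of all tested genes, among them *Slco1a1*, an organic anion transporter, at 47.9 ± 10.5 against 10.5 ± 7.06 FPKM (2.30, limma adjusted p = 0.0271). Under TPM and the hepatocyte marker scaling 10 and 11 rose, with 0.875% and 0.848% of all tested genes higher. With LA 0 of the 19 passed (median 0.15). Several of these genes have close relatives whose reads may not be separable.

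Of 30 female-biased genes only 14 reached a mean of 1 FPKM, some of them only through the groups in which they were high, so that their counts are a description. Between control and ND-fed mice, 12 were higher and 1 was lower (16.2% and 19.1% of all tested genes), with *Cyp17a1* at 59.6 ± 9.61 against 1.67 ± 0.0796 FPKM (4.49, limma adjusted p = 7.78e-09) and *Cyp2a4* at 34.5 ± 17.0 against 0.596 ± 0.425 FPKM (4.37, limma adjusted p = 0.000106), while *Cyp2b10* was the lower one (-0.97, limma adjusted p = 0.000322). With HYA, 0 were higher and 3 lower relative to control mice (1.57% and 1.23% of all tested genes), and 5 were lower under the hepatocyte marker scaling (28.1%), with *Cyp2b9* at 40.9 ± 9.97 against 84.2 ± 13.6 FPKM (-1.04, limma adjusted p = 0.0271). *Prlr*, which is itself female-biased in liver, was lower in control than in ND mice, opposite to the 12, and *Cux2*, which is so too, was not tested.

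**Figure D5:**
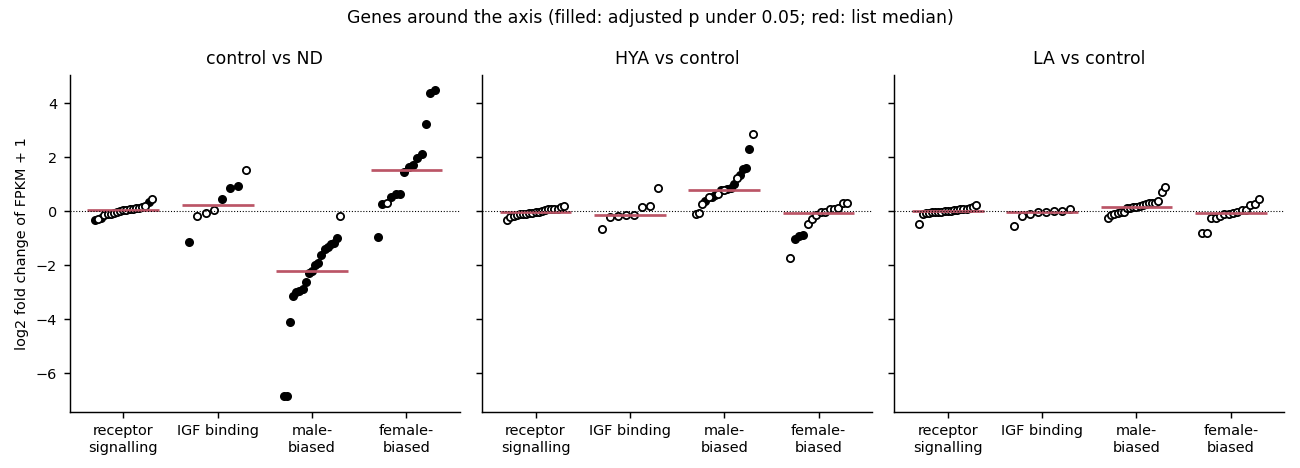
Log2 fold changes (of FPKM + 1) of the tested genes of 4 lists around the axis in 3 comparisons, sorted within each list (filled: adjusted p under 0.05 by limma; red line: median of the list). Male-biased genes lie at a median of -2.20 in control against ND-fed mice and 0.78 in HYA-treated against control mice, and no point is filled between LA-treated and control mice.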

How the data were processed

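Liver RNA of 12 mice was sequenced, and the authors deposited a single table, whose columns hold the FPKM of every gene in one mouse each. The submitters' processing notes name fastp, HISAT2 2.0.5, featureCounts 1.5.0-p3 and GRCm38; settings for strand and shared reads are not given in the sources used here. Their methods name TPM, but column totals ran from 342146 to 429286. Values times gene length were whole multiples of 1 step (100% within 0.05), read as 1 fragment. That step did not follow the number of fragments on genes alone. In ND-fed mouse 3, with 19595277 fragments, 1 fragment per kilobase stood at 0.0556 FPKM. Control mouse 3, with 19625837 fragments, had it at 0.0483 FPKM. The reason for this was not tested. Coordinates were identical for 53499 of 54409 shared GENCODE M21 identifiers.

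Groups were compared in 1 fit of log2(FPKM + 1) with limma 3.58.1 in R 4.3.3 (empirical Bayes with trend, two-sided), where the mean over 12 mice reached 1 FPKM, with Benjamini-Hochberg adjustment over 11083 genes and a threshold of 0.05. The pipeline was tested on simulated data. Promoters were from RefSeq. Mice were separate samples by label. Same-numbered mice of different groups did not deviate together (correlations -0.40 to 0.29, 3 of 18 above 0.1), so no block was used. Mice of different numbers gave -0.38 to 0.39 (7 of 36 above 0.1), highest for control mouse 3 with HYA-treated mouse 1. What such mice shared was not tested. Alternatives were a pseudocount of 0.1, TPM, median-ratio size factors, no filter or one of 5 FPKM, 2 groups only, a replicate block, voom on fragments, a fold threshold and leaving out each mouse; the hepatocyte marker scaling was added after seeing the data. Members, lists and the rule for named genes (all members; per list the 2 largest called changes each way for control against ND and 1 each way for HYA against control, or the lowest p; 3 most alike genes) were chosen with earlier results of these data known, so that no list is independent evidence. The level of a gene in whole liver was the only readout.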

Additional observations from a re-analysis of the deposited data

Results flagged for a closer look

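*Igfals* differed between the compounds: the effect of HYA on the high-fat diet exceeded that of LA by 0.58 on the log2 scale (limma with Benjamini-Hochberg, adjusted p = 0.0365), and all 3 HYA-treated mice lay above all 3 LA-treated mice. With 3 mice per group, single mice far from the rest were not tested for.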

How the results depend on the processing

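The 4 genes that fell in control compared with ND-fed mice did so under each alternative, except that *Igf1* was not called under the hepatocyte marker scaling, that *Prlr* was not tested with a filter of 5 FPKM and that only 1 gene, *Igfals*, passed once an absolute log2 fold change above 1 was also asked for; leaving out 1 mouse gave 4 to 6 calls, with *Stat5b* and *Socs2* added without control mouse 3. In those control against ND fits with 1 mouse left out, 13.2% to 17.4% of all tested genes were lower and 12.3% to 15.1% higher. Between LA-treated and control mice 0 of the 9 genes were called under any alternative. Between HYA-treated and control mice the 1 call became 0 when only these groups were fitted and at the fold threshold, and 0 to 2 when 1 mouse was left out. Of all tested genes, 0% were called with only these groups and 0.307% at the fold threshold. With 1 mouse left out, 0% to 3.4% were higher and 0% to 2.49% lower. Same-numbered mice were not found to be pairs, and the replicate block gave 2 calls between HYA-treated and control mice, *Ghr* being added, with the number of member calls of the other comparisons not altered. Over all tested genes the block gave 2.28% higher and 1.77% lower for HYA against control. For HYA against LA it gave 1.32% higher and 1.01% lower, where the main fit gave 0.235% and 0.253%. For HYA against LA the 1 call became 0 without the filter on low values, 0 at the fold threshold, 2 with the hepatocyte marker scaling and 0 to 0 with 1 mouse left out, so that the call needed all 6 mice. Of all tested genes, 0% were called without the filter, 0.108% at the fold threshold, and 0.568% were higher with the hepatocyte marker scaling. With 1 mouse left out, 0% to 0.0812% of all tested genes were higher and 0% to 0.0993% lower. Between HYA-treated and ND-fed mice the 4 calls became 2 without the filter, 0 at the fold threshold, 1 with the hepatocyte marker scaling and 1 to 3 with 1 mouse left out; between LA-treated and ND-fed mice 1 was left at the fold threshold, while *Socs2* was added with a pseudocount of 0.1 or only 2 groups fitted and *Stat5a* with the hepatocyte marker scaling (5 calls each). For HYA against ND, 2.73% of all tested genes were lower without the filter and 2.34% with the hepatocyte marker scaling. With 1 mouse left out, 4.75% to 6.44% were lower there. For LA against ND, 16.5% of all tested genes were lower with a pseudocount of 0.1 and 15.1% with only 2 groups fitted. Under the hepatocyte marker scaling 63.1% were higher in that comparison, and *Stat5a* lay 0.14 above the median of all tested genes. Sign changes occurred only among genes that had not passed the test. With the hepatocyte marker scaling *Stat5b* stood at 0.051 in control against ND, -0.057 in HYA against control, -0.19 in HYA against LA and 0.18 in LA against ND, and in HYA against LA it stood at -0.086 with TPM and -0.063 with voom. *Bcl6* in LA against ND stood at 0.16 with TPM, 0.28 with the hepatocyte marker scaling and 0.11 with voom. With 1 mouse left out, log2 differences that crossed 0 ran as follows: in control against ND, from -0.090 to 0.17 for *Stat5a* and -0.28 to 0.48 for *Bcl6*; in HYA against control, from -0.14 to 0.12 for *Stat5a* and -0.63 to 0.011 for *Bcl6*; in LA against control, from -0.019 to 0.12 for *Prlr*, -0.072 to 0.20 for *Stat5a*, -0.15 to 0.021 for *Igf1*, -0.085 to 0.12 for *Igfals* and -0.47 to 0.17 for *Bcl6*. In HYA against LA they ran from -0.18 to 0.025 for *Stat5a*, -0.089 to 0.14 for *Stat5b* and -0.53 to 0.058 for *Bcl6*; in HYA against ND, from -0.063 to 0.13 for *Stat5a*, -0.55 to 0.28 for *Cish* and -0.59 to 0.22 for *Bcl6*; and in LA against ND, from -0.38 to 0.38 for *Bcl6*. Apart from the scalings, the filters and the number of mice fitted, the cause of these shifts was not tested. The fewest fragments lay on *Cux2*, at 9 to 21 per mouse, and *Socs2*, at 115 to 481; depth as a limit was not tested.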

Other observations

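Compared with ND-fed mice, the lists around the axis were also counted in the groups given HYA or LA. Of the 19 tested male-biased genes, 14 were lower in HYA-treated mice (median log2 fold change -1.21) and 17 in LA-treated mice (-2.01), and 0 were higher in either; of all tested genes, 7.85% were lower and 8.72% higher with HYA and 16.6% lower and 14.4% higher with LA. Of the 14 tested female-biased genes, HYA had 10 higher and 1 lower, and LA had 9 higher and 1 lower. Of the 8 tested genes for IGF-binding proteins and receptors, HYA had 2 higher and 0 lower, and LA had 3 higher and 2 lower, to be read against the same shares. These counts share their ND-fed mice, and differences between them were not tested. Directly between HYA-treated and LA-treated mice, 3 male-biased genes were higher and 3 female-biased genes lower, against 0.235% of all tested genes higher and 0.253% lower.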
